A study of Mus musculus with 16 samples.

Results

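The thrombospondins are a family of secreted, calcium-binding glycoproteins of the extracellular matrix, encoded in the mouse by Thbs1, Thbs2, Thbs3, Thbs4 and Comp (cartilage oligomeric matrix protein, also called thrombospondin-5). These 5 genes were taken from the 55573 genes of the count table by symbol and gene identifier, and all 5 passed the filter on low counts that left 16857 genes for testing. The family was selected on earlier results of these data, in which Thbs4 stood out between the viruses in TAC hearts. That contrast is therefore described here without a test, and the tests of TAC against sham use the same TAC mice. RNA came from the apex of the heart of 16 male mice in 4 groups of 4. Every mouse had received, on postnatal day 1, an adeno-associated virus of serotype 9 whose cardiac troponin T (cTNT) promoter drives its cargo in cardiomyocytes. The cargo was either Cardinal (Gm12295, a long noncoding RNA of the heart, AAV9-cTNT-CARDINAL) or green fluorescent protein (AAV9-cTNT-GFP). The mice then underwent transverse aortic constriction (TAC), which loads the left ventricle with pressure, or a sham operation, and hearts were collected 4 weeks later. There was no group without virus, so each comparison is between hearts that carry a virus. Groups are named here by the virus, AAV9-GFP or AAV9-Cardinal, and the operation.

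Thrombospondins assemble into trimers (Thbs1 and Thbs2) or pentamers (Thbs3, Thbs4 and Comp) and bind cells and other matrix proteins rather than forming fibres of their own. Thbs1 is known for activating latent TGF-beta and, with Thbs2, for restraining blood vessel growth through the receptors Cd36 and Cd47. In the heart, Thbs4 is known as a gene induced by pressure overload, with an intracellular role in the Atf6 branch of the endoplasmic reticulum stress response, and Thbs2 as a gene that protects matrix integrity.

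The libraries held 16441997 to 21904589 counts, of which 30.3% to 34% fell on mitochondrially encoded genes. Levels are given as CPM, the counts of a gene per 1000000 counts of the TMM-scaled library, on which 3 counts equal 0.126 to 0.195 CPM. As a check of the virus labels, Gm12295 was at 3.42 to 7.24 CPM in the 8 mice given AAV9-GFP and at 18.3 to 93.9 CPM in the 8 mice given AAV9-Cardinal, without overlap. The 93.9 CPM belonged to AAV9-Cardinal TAC replicate 1, and the other 3 mice of that group were at 18.3 to 20.6 CPM. Of the cardiomyocyte genes, Tnnt2, Tnni3, Myh6, Myl2 and Pln were abundant in all groups. The atrial genes Myl7 and Sln had no counts in 15 of 16 mice each, with at most 11 and 4 counts in the remaining mouse.

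Promoters are shown for 3 of the 4 members called after TAC, Thbs3 and Thbs4, which were higher, and Thbs2, which was lower. RefSeq windows (GRCm38.p6) were matched for these 3 and not for Thbs1, which was also higher, or Comp, and the 250 bases before each annotated start are printed 5′ to 3′ in the direction of the gene. The windows are chr13:92794819-92795068 (minus strand) for Thbs4, chr3:89214930-89215179 (plus strand) for Thbs3 and chr17:14694263-14694512 (minus strand) for Thbs2. Capitals mark matches, on either strand, to 5 short motifs, named in the paragraph that follows with the letters searched.
Thbs4: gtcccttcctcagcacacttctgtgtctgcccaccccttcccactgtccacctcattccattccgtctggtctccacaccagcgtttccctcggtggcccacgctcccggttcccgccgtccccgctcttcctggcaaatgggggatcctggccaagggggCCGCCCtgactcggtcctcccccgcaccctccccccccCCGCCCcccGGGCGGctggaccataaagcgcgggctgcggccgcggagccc
Thbs3: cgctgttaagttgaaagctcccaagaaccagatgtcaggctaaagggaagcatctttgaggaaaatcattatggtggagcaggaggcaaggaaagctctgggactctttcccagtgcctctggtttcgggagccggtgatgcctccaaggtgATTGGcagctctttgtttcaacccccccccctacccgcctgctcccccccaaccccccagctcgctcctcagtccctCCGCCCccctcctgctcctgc
Thbs2: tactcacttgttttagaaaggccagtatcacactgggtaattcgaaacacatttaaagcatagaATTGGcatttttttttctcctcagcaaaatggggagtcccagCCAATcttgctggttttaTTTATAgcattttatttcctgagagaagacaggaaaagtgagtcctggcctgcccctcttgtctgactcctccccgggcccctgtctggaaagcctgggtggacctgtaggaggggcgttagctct

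The Thbs4 window held 3 GC boxes (the letters GGGCGG, on which Sp1-type factors are known to bind), at 89, 51 and 42 bases before the start. By exact letters it held neither a CCAAT box nor a TATA box. Near matches were not searched, and the printed Thbs4 window has letters close to those of a TATA box shortly before the start. The Thbs3 window held 1 CCAAT box (searched by those same 5 letters of its name), 98 bases before the start, and 1 GC box, 21 bases before it. The Thbs2 window held 2 CCAAT boxes, at 186 and 144 bases before the start, and no GC box. It also held the TATA box letters TATAAA 126 bases before the start, on the strand opposite to the gene. All of these are matches of letters, and whether a site is used was not tested. None of the 3 windows held an AP-1 site, the letters TGANTCA bound by Fos and Jun proteins. Likewise none held a GATA site, searched as AGATAA after the factor family of that name. No match overlapped another. Over the 32851 RefSeq windows of the same length, 32.7% held a GC box, 33.8% a CCAAT box, 12.4% a TATA box, 6.75% an AP-1 site and 9.99% a GATA site. The G and C content was 70.8% for Thbs4, above 91.7% of all windows, 58.8% for Thbs3 and 46.8% for Thbs2, against a median of 52.4%.

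Under pressure overload the family did not move as a block. In AAV9-GFP hearts, Thbs4 was 6.48-fold, Thbs1 5.33-fold and Thbs3 1.47-fold higher after TAC than after sham, and Thbs2 was 1.82-fold lower. In AAV9-Cardinal hearts the same 4 genes passed the test in the same directions, Thbs4 at 2.59-fold, Thbs1 at 4.27-fold and Thbs3 at 1.44-fold higher and Thbs2 at 1.87-fold lower. Comp did not pass in either. A gene was called when its edgeR quasi-likelihood p-value, adjusted over all 16857 genes, was under 0.05. Of all genes tested, 8.49% were called higher and 8.92% lower in AAV9-GFP hearts, and 3.10% higher and 3.38% lower in AAV9-Cardinal hearts. Beside those shares, 3 of 5 members were called higher and 1 of 5 lower in each. Thbs4 is among the 3, and the family was selected on it with the same TAC mice. Its calls, and counts that include it, are therefore not independent of the selection. The median log2 fold change over all genes was 0.01 in AAV9-GFP and 0 in AAV9-Cardinal hearts, against 1.52 and 1.15 over the 5 members. In both cases the middle member is Comp, which did not pass and whose value rests on single mice, as given with it. With no virus contrast in sham hearts passing for any member, the sham groups are described last.

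**Figure D1:**
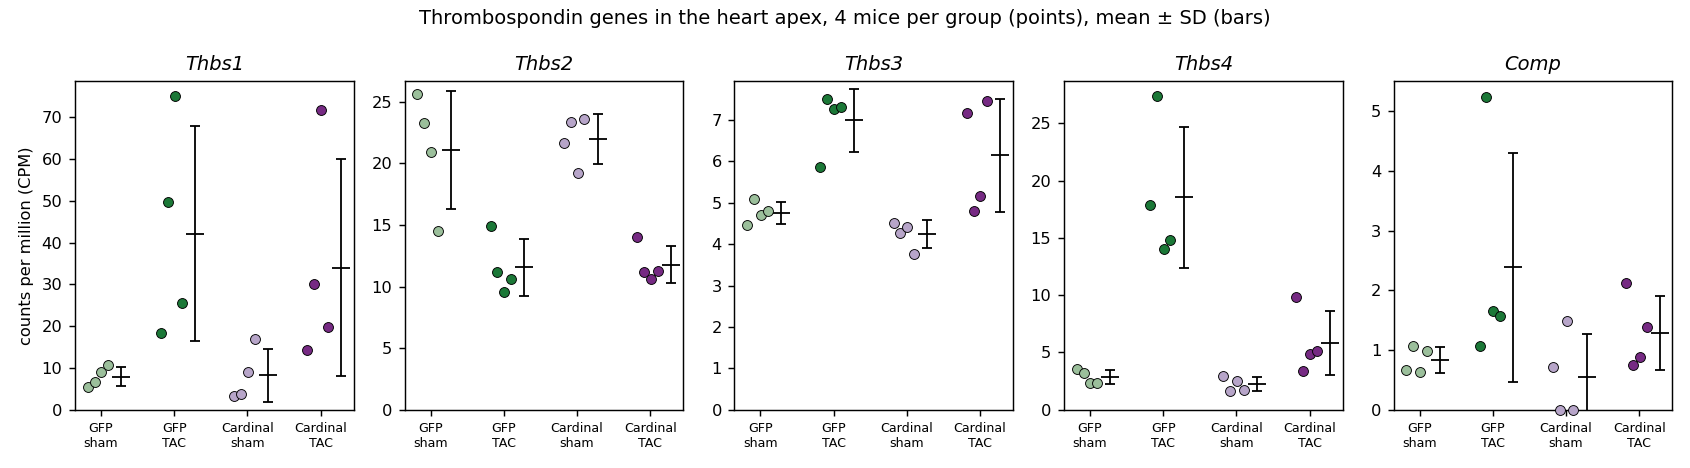
Level of each thrombospondin gene in CPM (y axis, separate linear scale per gene, starting at 0) in each of the 16 mice (points), by group, with mean ± SD of 4 mice beside them. Thbs1, Thbs3 and Thbs4 are higher and Thbs2 is lower in TAC groups, the Thbs1 points spread widely within TAC groups, and the Thbs4 points of AAV9-Cardinal TAC lie below all those of AAV9-GFP TAC.

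Thbs4 (ENSMUSG00000021702) lies on chr13:92751590-92794818 (GRCm38, minus strand) with 22 merged exons of 3.289 kb, none of which overlap another annotated gene. In AAV9-GFP sham hearts it measured 3.59, 3.17, 2.35 and 2.3 CPM, and in AAV9-GFP TAC hearts 17.9, 27.4, 14 and 14.8 CPM. No TAC mouse overlapped a sham mouse, and the lowest TAC value was well above the highest sham value. The group mean rose from 2.85 ± 0.635 to 18.5 ± 6.14 CPM (SD, n = 4 each), which is a log2 fold change of 2.70 (SE 0.308, edgeR adjusted p = 5.1e-05). In AAV9-Cardinal sham hearts Thbs4 measured 2.94, 1.67, 2.55 and 1.75 CPM, and in AAV9-Cardinal TAC hearts 9.87, 3.38, 4.89 and 5.11 CPM. Again the groups did not overlap, although the lowest TAC mouse was close to the highest sham mouse, and replicate 1, the mouse with the highest Gm12295, was highest. The group mean rose from 2.23 ± 0.616 to 5.81 ± 2.81 CPM, a log2 fold change of 1.37 (SE 0.331, edgeR adjusted p = 0.0259). This call was lost on leaving out AAV9-Cardinal sham replicate 2 (adjusted p = 0.0862), sham replicate 4 (0.0655) or TAC replicate 5 (0.0501), and without TAC replicate 1 the log2 fold change was 0.99.

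Between the viruses in TAC hearts, the contrast in which Thbs4 was noticed, its log2 fold change was −1.67 (SE 0.285), with all 4 AAV9-Cardinal TAC mice below all 4 AAV9-GFP TAC mice. Among all genes tested, 3.19% were lower in AAV9-Cardinal TAC without overlap. The other 4 members overlapped between the 2 TAC groups, with log2 fold changes of −0.31 (SE 0.539) for Thbs1, 0.03 (SE 0.165) for Thbs2, −0.18 (SE 0.129) for Thbs3 and −0.89 (SE 0.634) for Comp. The TAC response of Thbs4 in AAV9-Cardinal hearts minus that in AAV9-GFP hearts was −1.32 on the log2 scale (SE 0.455). The same quantity was −0.32 (SE 0.826) for Thbs1, −0.03 (SE 0.229) for Thbs2, −0.02 (SE 0.19) for Thbs3 and −0.37 (SE 1.04) for Comp. For Comp, the value between the viruses was −0.15 without AAV9-GFP TAC replicate 3, and the difference in response changed sign without that mouse (0.38) or without AAV9-Cardinal sham replicate 3 (0.74). These differences carry no test here, and the SE of Thbs1 and Comp is too wide to place their responses as alike or apart.

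**Figure D2:**
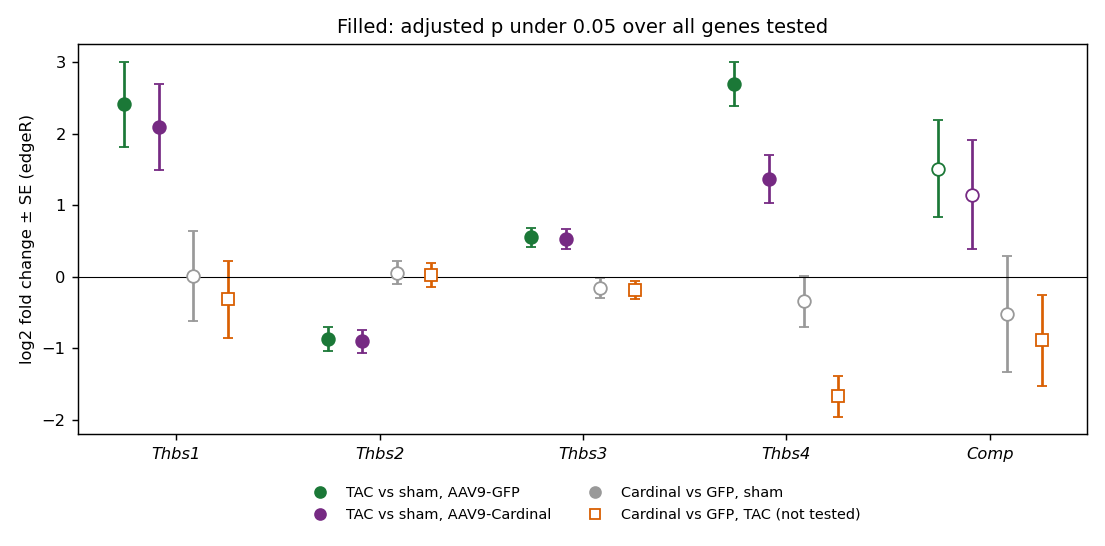
log2 fold change of each member (y axis, ± SE from edgeR) for TAC against sham in AAV9-GFP and AAV9-Cardinal hearts and for AAV9-Cardinal against AAV9-GFP in sham and in TAC hearts (squares, not tested). Filled circles mark an adjusted p under 0.05 over all genes. The green and purple circles lie at 2.70 and 1.37 for Thbs4 and near each other for Thbs2 and Thbs3, and none of the grey circles is filled.

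Genes of activated fibroblasts, the matrix-secreting cells of the stressed heart, moved with Thbs4. The summed level of the 7 tested markers was 74.7 to 83.5 CPM in AAV9-GFP sham, 244 to 386 CPM in AAV9-GFP TAC, 70.5 to 85.7 CPM in AAV9-Cardinal sham and 107 to 218 CPM in AAV9-Cardinal TAC. The eighth, Cthrc1, had no counts in 10 of 16 mice. In AAV9-GFP hearts 6 of 7 rose after TAC and none fell (median log2 fold change 1.75), and in AAV9-Cardinal hearts 3 of 7 rose (median 0.77). In the latter, 4 had an unadjusted edgeR p under 0.05 and DESeq2 called 4. Of all genes, 8.49% were called higher in AAV9-GFP hearts and 3.10% in AAV9-Cardinal hearts. Cilp, a matrix protein gene, had a log2 fold change of 3.62 in AAV9-GFP and 2.03 in AAV9-Cardinal hearts, Postn (periostin) 2.87 and 1.37, and Tnc (tenascin C) 2.94 and 1.85, all called. Meox1, a transcription factor of activated fibroblasts, was called in AAV9-GFP hearts at 1.75 and not in AAV9-Cardinal hearts at 0.77. Within AAV9-Cardinal TAC, replicate 1 had both the most Thbs4 (9.87 CPM) and the largest marker sum (218 CPM). Within AAV9-GFP TAC, replicate 3 had both the most Thbs4 (27.4 CPM) and the largest marker sum (386 CPM). Below the top mouse of each group the orders differed: AAV9-GFP TAC replicate 1 had the smallest marker sum (244 CPM) with the second highest Thbs4 (17.9 CPM), and AAV9-Cardinal TAC replicate 5 had a larger sum than replicate 6 (130 against 110 CPM) with slightly less Thbs4 (4.89 against 5.11 CPM). As a ratio, Thbs4 was 2.18% to 4.61% of the marker sum in sham mice, 4.96% to 7.33% in AAV9-GFP TAC mice and 3.17% to 4.63% in AAV9-Cardinal TAC mice. Their part in the Thbs4 result was not tested. In RNA from whole tissue, more or fewer cells of a type and more or less RNA per cell cannot be told apart.

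**Figure D3:**
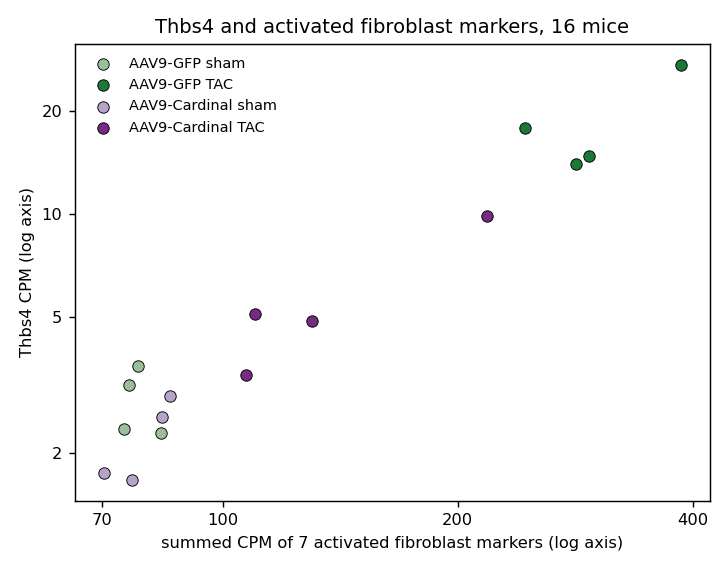
Thbs4 level in CPM (y axis, log) against the summed CPM of 7 activated fibroblast markers (x axis, log) in the 16 mice, coloured by group. Sham mice sit between 70.5 and 85.7 CPM of markers, AAV9-Cardinal TAC mice between 107 and 218 CPM and AAV9-GFP TAC mice between 244 and 386 CPM, and Thbs4 is higher in the same order of groups.

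The 3 genes whose log2 CPM over the 16 mice was most like that of Thbs4 were Postn (Pearson r = 0.974), Ltbp2 (0.970), a latent TGF-beta binding protein, and Cilp (0.968), out of 14292 tested genes that averaged 1 CPM or more. The points share the TAC-sham difference that all these genes show. Among the members, Thbs4 was most like Thbs3 (r = 0.860) and Comp (0.716), and less like Thbs1 (0.630). With the group means removed, which was added after the first values were seen, Thbs4 had r = 0.652 with Comp, 0.513 with Thbs3, 0.398 with Thbs2 and −0.365 with Thbs1 over 16 mice. By that measure the genes most like Thbs4 were others, Ctsz (r = 0.911), Arap1 (0.881) and Slc1a3 (0.881), and Postn, Ltbp2 and Cilp were not among the first 8. The like genes given for the other members likewise carry the difference between the groups. All correlations with Comp include AAV9-Cardinal sham replicates 2 and 4, whose Comp counts of 0 stand at −3.421 log2 CPM. These mice also had the lowest Thbs4 values, 1.67 and 1.75 CPM.

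Thbs1 (ENSMUSG00000040152, chr2:118111876-118127133, plus strand) has 22 merged exons of 6.073 kb and encodes the family's best-known activator of TGF-beta. It measured 5.44, 6.63, 9.02 and 10.6 CPM in AAV9-GFP sham hearts and 18.4, 49.7, 75 and 25.5 CPM in AAV9-GFP TAC hearts. The groups did not overlap, but the highest TAC mouse was 4.07 times the lowest. On average Thbs1 rose from 7.91 ± 2.31 to 42.2 ± 25.7 CPM (SD, n = 4 each), with a log2 fold change of 2.42 (SE 0.593, edgeR adjusted p = 0.0109). In AAV9-Cardinal sham hearts Thbs1 measured 3.21, 3.67, 9.08 and 16.9 CPM, and in AAV9-Cardinal TAC hearts 14.4, 30, 71.7 and 19.9 CPM. Here the groups overlapped, since sham replicate 4 (16.9 CPM) was above TAC replicate 1 (14.4 CPM). On average it rose from 8.21 ± 6.36 to 34 ± 25.9 CPM, a log2 fold change of 2.09 (SE 0.596, edgeR adjusted p = 0.0493).

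In each of the 4 groups the mouse numbered 1 had the lowest Thbs1. The AAV9-Cardinal call sat at the threshold. It was lost in 12 of the 16 fits that left out 1 mouse, with adjusted p between 0.0269 and 0.193 over all 16. The mice whose loss ended it were AAV9-Cardinal sham replicates 1, 2 and 3, AAV9-Cardinal TAC replicates 4, 5 and 6, all 4 AAV9-GFP sham mice and AAV9-GFP TAC replicates 3 and 7. Without AAV9-Cardinal TAC replicate 5 (71.7 CPM) the log2 fold change was 1.43, and without AAV9-Cardinal sham replicate 4 it was 2.68. In AAV9-GFP hearts the Thbs1 call held in all 16 such fits (log2 fold change 1.99 to 2.67).

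Platelets store thrombospondin-1, so platelet genes were read beside it. Of 7 platelet and megakaryocyte markers 4 were tested (Pf4, Ppbp, Itga2b and Gp1ba) and none was called in the 3 contrasts tested, with 0 at an unadjusted edgeR p under 0.05 and 0 by DESeq2. Their summed level was 7.14 to 9.11 CPM in AAV9-GFP sham, 7.11 to 14.2 CPM in AAV9-GFP TAC, 6.94 to 10.5 CPM in AAV9-Cardinal sham and 6.86 to 8.51 CPM in AAV9-Cardinal TAC. Gp9 and Treml1 had no counts in 9 and 12 of 16 mice. The genes most like Thbs1 over the 16 mice were Ptgs2 (cyclooxygenase-2, r = 0.932), Aoc3 (a vascular amine oxidase, r = 0.932) and Cdv3 (r = 0.914). An antisense gene, Gm29233, overlaps 208 exonic bases of Thbs1 and had 0 counts in every mouse.

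Thbs2 (ENSMUSG00000023885, chr17:14665500-14694235, minus strand) has 21 merged exons of 7.003 kb with no overlap with other genes, and was the member that fell. It measured 25.6, 23.3, 20.9 and 14.5 CPM in AAV9-GFP sham hearts and 14.9, 11.2, 9.54 and 10.6 CPM in AAV9-GFP TAC hearts. Sham replicate 4 (14.5 CPM) lay just under TAC replicate 1 (14.9 CPM), and the other mice were separate. On average Thbs2 fell from 21.1 ± 4.79 to 11.5 ± 2.32 CPM (SD, n = 4 each), with a log2 fold change of −0.87 (SE 0.162, edgeR adjusted p = 0.00195). In AAV9-Cardinal hearts Thbs2 measured 21.7, 23.4, 19.2 and 23.6 CPM after sham and 14, 11.2, 10.6 and 11.3 CPM after TAC. Every TAC mouse was below every sham mouse. On average it fell from 22 ± 2.03 to 11.8 ± 1.51 CPM, a log2 fold change of −0.90 (SE 0.163, edgeR adjusted p = 0.00623). This call held in all 16 fits that left out 1 mouse and was lost with a term for the replicate number (edgeR adjusted p = 0.112). That term fits AAV9-Cardinal TAC replicates 5 and 6 exactly, as no other mouse carries their numbers. Only replicates 1 and 4 then inform the AAV9-Cardinal TAC level. The log2 CPM of Thbs2 ran against that of Thbs1 over the 16 mice (r = −0.862) and, less closely, within groups (r = −0.528). The genes most like Thbs2 were Zadh2 (r = 0.960), Dip2c (0.954) and Synj2 (0.950), none of which encodes a matrix protein.

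Thbs3 (ENSMUSG00000028047, chr3:89215180-89226837, plus strand) has 20 merged exons of 4.823 kb and changed least among the members called. It measured 4.45, 5.09, 4.7 and 4.79 CPM in AAV9-GFP sham hearts and 5.87, 7.51, 7.26 and 7.31 CPM in AAV9-GFP TAC hearts. The groups did not overlap and the sham mice lay within 1.15-fold of each other. The 4 mice averaged 4.76 ± 0.266 CPM after sham and 6.99 ± 0.751 CPM after TAC (SD), with a log2 fold change of 0.55 (SE 0.132, edgeR adjusted p = 0.00932). In AAV9-Cardinal hearts Thbs3 measured 4.52, 4.28, 4.42 and 3.76 CPM after sham and 7.17, 4.79, 5.17 and 7.46 CPM after TAC. The groups did not overlap, with TAC replicates 4 and 5 only just above the sham mice. Mean levels rose from 4.24 ± 0.336 to 6.15 ± 1.36 CPM, a log2 fold change of 0.53 (SE 0.135, edgeR adjusted p = 0.0324). This call was lost without any 1 of the 4 AAV9-Cardinal sham mice or of AAV9-Cardinal TAC replicates 1 and 6 (highest adjusted p = 0.101). An antisense neighbour, Mtx1 of the mitochondrial outer membrane, overlaps 318 exonic bases of Thbs3 (6.59%). The strand setting of the counting is not given in the sources used here. Mtx1 was not called in either TAC contrast (log2 fold change −0.11 and 0.14). The genes most like Thbs3 were Vim (vimentin, an intermediate filament of mesenchymal cells, r = 0.945), Gm10080 (0.941) and Pebp1 (0.932).

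Comp (ENSMUSG00000031849, chr8:70373558-70382066, plus strand), with 20 merged exons of 2.967 kb, is the cartilage and tendon member and was the least expressed. It measured 0.662, 1.06, 0.637 and 0.978 CPM in AAV9-GFP sham hearts and 1.07, 5.24, 1.66 and 1.57 CPM in AAV9-GFP TAC hearts. The groups only just did not overlap, and replicate 3 stood above the rest of the TAC group. The mean was 0.833 ± 0.215 CPM after sham and 2.39 ± 1.92 CPM after TAC (SD, n = 4 each), and the log2 fold change of 1.52 did not pass (SE 0.675, edgeR adjusted p = 0.144). Without replicate 3 it was 0.78 (adjusted p = 0.528). In AAV9-Cardinal hearts it measured 0.723, 0, 1.49 and 0 CPM after sham and 2.12, 0.752, 0.885 and 1.38 CPM after TAC. The groups overlapped, and sham replicates 2 and 4 had 0 counts where the other sham mice had 16 and 31. A count of 0 allows up to 0.139 and 0.195 CPM in those mice, for counting error only. The means were 0.553 ± 0.711 and 1.29 ± 0.621 CPM (log2 fold change 1.15, SE 0.762, edgeR adjusted p = 0.419), and leaving out 1 mouse moved the log2 fold change between 0.72 (without sham replicate 2) and 2.26 (without sham replicate 3). Comp was most like Mthfd2 (r = 0.855), Paqr4 (0.851) and Gm9234 (0.844).

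Counted by overlap, 4 members (Thbs1, Thbs3, Thbs4 and Comp) were higher in all AAV9-GFP TAC mice than in any AAV9-GFP sham mouse and none was lower in this way, where 10.1% of all genes were higher and 10.2% lower. In AAV9-Cardinal hearts 2 members (Thbs3 and Thbs4) were higher and 1 (Thbs2) lower without overlap, against 6.51% and 7.21% of all genes. Both counts of higher members include Thbs4, on which the family was selected.

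Cartilage, tendon and valve markers were read beside Comp and Thbs4, which those tissues also express. Of 10 markers 4 were tested. In AAV9-GFP hearts Sox9 (log2 fold change 2.34), Fmod (2.23) and Scx (0.85) rose and Cnmd fell (−4.28), and in AAV9-Cardinal hearts only Sox9 was called (1.25). In the latter, 3 of the 4 had an unadjusted edgeR p under 0.05, 2 of them higher. The summed level of the 4 was 2.98 to 6.05 CPM in AAV9-GFP sham, 8.57 to 15.7 CPM in AAV9-GFP TAC, 3.62 to 4.95 CPM in AAV9-Cardinal sham and 6.16 to 7.82 CPM in AAV9-Cardinal TAC. The defining cartilage and tendon genes Tnmd, Col9a1 and Matn3 had 0 counts in all 16 mice, Col2a1 in 13 and Acan in 10. The markers that moved were low. Cnmd averaged 1.15 CPM in AAV9-GFP sham and 0.0536 CPM in AAV9-GFP TAC, the latter below the CPM of 3 counts. Fmod averaged 0.287 and 1.37 CPM in these groups, with TAC mice from 0.696 to 3.1 CPM. Sox9 averaged 1.18 and 6.01 CPM and Scx 2.37 and 4.27 CPM. The part of these markers in the Thbs4 and Comp values was not tested.

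Compared per length, the order of the members differed between sham and TAC hearts. In AAV9-GFP sham hearts Thbs2 led at a mean of 3.01 CPM per kb of merged exons, followed by Thbs1 (1.3), Thbs3 (0.986), Thbs4 (0.868) and Comp (0.281). The steps from Thbs2 to Thbs1 and from Thbs4 to Comp did not overlap between mice, and the steps between Thbs1, Thbs3 and Thbs4 did. In AAV9-Cardinal sham hearts the order was the same, with Thbs2 at 3.14 CPM per kb, above Thbs1 in each of the 4 mice although their ranges overlapped. In AAV9-GFP TAC hearts Thbs1 (6.94 CPM per kb) and Thbs4 (5.64) had the highest means but were not separable, as Thbs1 was above Thbs4 in 1 of 4 mice. Both means exceeded those of Thbs2 (1.65), Thbs3 (1.45) and Comp (0.804). In AAV9-Cardinal TAC hearts Thbs1 (5.6 CPM per kb) was above Thbs4 (1.77) in 3 of 4 mice, and Thbs4 and Thbs2 (1.68) were not separable.

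Summed over the family, the level per length was 6.45 ± 0.457 CPM per kb in AAV9-GFP sham, 16.5 ± 4.95 in AAV9-GFP TAC, 6.23 ± 0.937 in AAV9-Cardinal sham and 10.8 ± 3.64 in AAV9-Cardinal TAC (SD, n = 4 each). Thbs2 made up 46.3 ± 7.78% of that sum in AAV9-GFP sham and 11 ± 4.95% in AAV9-GFP TAC, and 51.2 ± 9.09% and 16.8 ± 5.11% in the AAV9-Cardinal groups. Thbs4 made up 13.4 ± 2.21% and 35.4 ± 9.98% in the AAV9-GFP groups, and 11.1 ± 3.64% and 17.6 ± 9.92% in the AAV9-Cardinal groups. The share of Thbs1 was 20.6 ± 7.48% and 39.7 ± 15.6%, and 20.3 ± 12.9% and 48.2 ± 20.9%, respectively. The ratio of Thbs1 to Thbs2 per length was 0.17 to 0.841 in the 8 sham mice and 1.19 to 9.07 in the 8 TAC mice, so that every sham mouse had more Thbs2 and every TAC mouse more Thbs1.

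**Figure D4:**
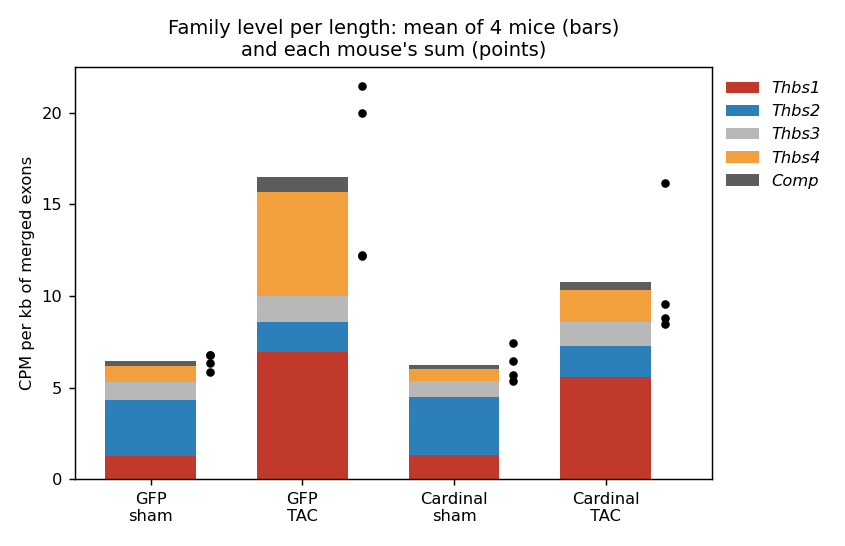
Level per length of the 5 members stacked by gene (bars, mean of 4 mice, CPM per kb of merged exons, axis from 0) and the sum in each mouse (points), by group. The Thbs2 band (blue) is the largest in both sham groups and small in both TAC groups, and the Thbs4 band (orange) is 5.64 in AAV9-GFP TAC and 1.77 in AAV9-Cardinal TAC.

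In sham hearts no member was called between the viruses. Nor was the cargo Gm12295, at 4.77 ± 1.03 CPM against 31 ± 6.25 CPM (SD, n = 4 each) without overlap (log2 fold change 2.70, SE 0.494, edgeR adjusted p = 0.35). The lack of a call alone therefore does not show that a gene is unchanged in this contrast. The Gm12295 SE comes from the fit of all 16 mice, which includes AAV9-Cardinal TAC replicate 1 at 93.9 CPM. It does not carry over to other genes, whose SE is given with each. On the log2 scale, AAV9-Cardinal minus AAV9-GFP was 0.01 (SE 0.628) for Thbs1, 0.06 (SE 0.159) for Thbs2, −0.16 (SE 0.138) for Thbs3, −0.34 (SE 0.354) for Thbs4 and −0.52 (SE 0.812) for Comp, each with an edgeR adjusted p of 1. At an unadjusted p under 0.05 the count over the 5 members was also 0, as it was by DESeq2 after adjustment. Over all genes edgeR called 2, or 0.0119%, and 437 had an unadjusted p under 0.05. Every member overlapped between the sham groups. For Thbs1 and Comp the SE leaves room for differences of the size seen after TAC in other members.

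The receptors and binding partners of the thrombospondins were examined next. Of 18 such genes, all tested, 5 rose and 2 fell after TAC in AAV9-GFP hearts (median log2 fold change 0.16), and none was called by edgeR in AAV9-Cardinal hearts (median 0.07), where 5 had an unadjusted p under 0.05 and DESeq2 called 1. Those that rose in AAV9-GFP hearts were Itgb3, the beta chain of the vitronectin receptor (log2 fold change 0.91, SE 0.283, adjusted p = 0.0364), Fn1 (fibronectin, 0.73), the proteoglycan Sdc1 (0.52), the endocytic receptor Lrp1 (0.45) and Notch3 (0.27). Cd36, the receptor of thrombospondin-1 and -2 and a fatty acid transporter of cardiomyocytes, had a log2 fold change of −0.25 in AAV9-GFP hearts, a fall that passed the test (SE 0.07, edgeR adjusted p = 0.0227) and stood at −0.04 in AAV9-Cardinal hearts (adjusted p = 0.818). Its mean was 1228 CPM in AAV9-GFP sham and 1033 CPM in AAV9-GFP TAC. Scarb2, a relative of Cd36 in the lysosome, also fell (−0.23). Cd47, the other classical receptor, was at 40.3 CPM in AAV9-GFP sham and 40.6 CPM in AAV9-GFP TAC (log2 fold change 0.01, SE 0.0614) and at −0.06 (SE 0.0616) in AAV9-Cardinal hearts. Cacna2d1, the calcium channel subunit that binds thrombospondins, was not called in either (−0.16 and 0.04).

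**Figure D5:**
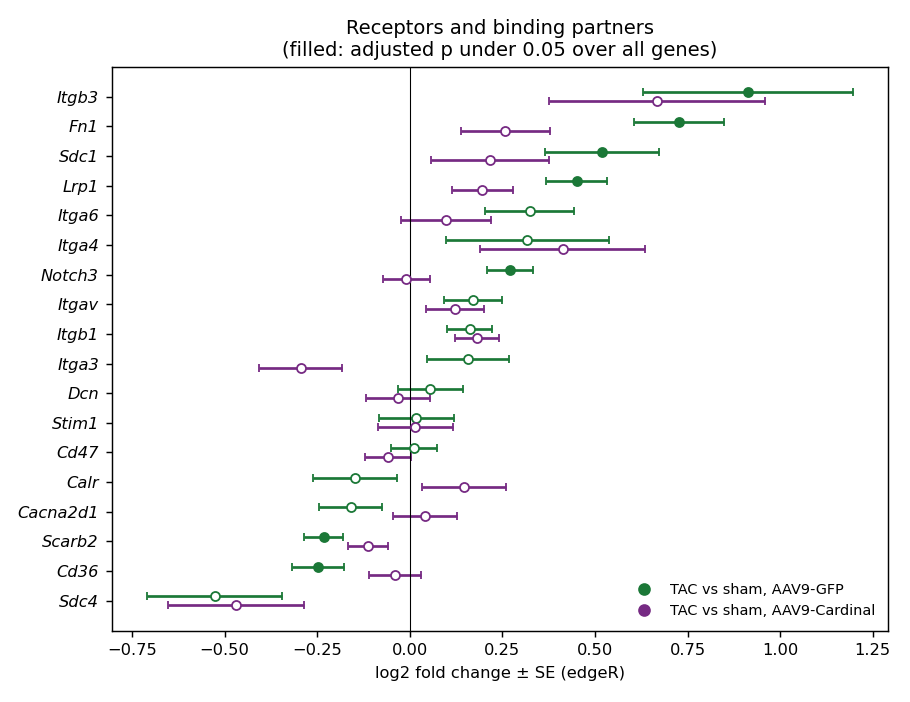
log2 fold change ± SE (x axis) of 18 thrombospondin receptors and binding partners (y axis, ordered by the AAV9-GFP value) for TAC against sham in AAV9-GFP and AAV9-Cardinal hearts. Filled points passed an adjusted p of 0.05 over all genes, 7 of them in AAV9-GFP and none in AAV9-Cardinal hearts. Of all genes, 8.49% were called higher and 8.92% lower in AAV9-GFP hearts, and 3.10% and 3.38% in AAV9-Cardinal hearts.

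In the TGF-beta pathway, which Thbs1 can switch on, 10 of 16 genes rose and 1 fell after TAC in AAV9-GFP hearts (median log2 fold change 0.39), and 3 rose and 1 fell in AAV9-Cardinal hearts (median 0.19). In AAV9-Cardinal hearts 9 of the 16 had an unadjusted edgeR p under 0.05, 8 of them higher, and DESeq2 called 6. Of all genes, 8.49% were called higher and 8.92% lower in AAV9-GFP hearts, and 3.10% and 3.38% in AAV9-Cardinal hearts. Genes called in both included Ltbp2 (log2 fold change 3.27 and 1.83) and Ccn2 (connective tissue growth factor, 1.34 and 1.24), and Ltbp1, which stores latent TGF-beta in the matrix, fell in both (−0.64 and −0.33). Fbn1 (fibrillin-1) rose in AAV9-GFP hearts (1.45) and was at 0.55 in AAV9-Cardinal hearts (adjusted p = 0.111). The ligand gene Tgfb1 rose from 17.4 to 23.1 CPM in AAV9-GFP hearts (log2 fold change 0.41, SE 0.114, edgeR adjusted p = 0.0217) and did not pass in AAV9-Cardinal hearts (0.14, adjusted p = 0.525).

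The Atf6 branch is the one with which Thbs4 is linked inside the cell. Of 23 genes of this branch and of the endoplasmic reticulum chaperones, none rose and 2 fell in AAV9-GFP hearts, where the edgeR calls were Sdf2l1 (log2 fold change −0.59) and Canx (−0.33). That share is close to the 8.92% of all genes called lower, and 8 of the 23 had an unadjusted p under 0.05 (1 higher and the others lower) while DESeq2 called 5. In AAV9-Cardinal hearts 1 rose, Atf6 (0.48, SE 0.12, edgeR adjusted p = 0.029), and 1 fell, Sel1l (−0.16). These counts are close to the 3.10% of all genes called higher and 3.38% called lower in AAV9-Cardinal hearts. Atf6 was at 0.13 in AAV9-GFP hearts (adjusted p = 0.519). Hspa5, the chaperone BiP and a main Atf6 target, was at −0.37 (SE 0.13, adjusted p = 0.0639) and 0.08 (SE 0.129, adjusted p = 0.789). The median log2 fold change of the list was −0.15 in AAV9-GFP hearts and 0.08 in AAV9-Cardinal hearts, and a link to Thbs4 was not tested.

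Among markers of the cell types of the heart, fibroblast genes rose for 4 of 9 in AAV9-GFP hearts, led by Col3a1 (log2 fold change 1.49), Col1a1 (1.46), Col1a2 (1.04) and Lum (0.74), and for none in AAV9-Cardinal hearts by edgeR (4 at an unadjusted p under 0.05, 2 by DESeq2). Their summed level was 1085 to 1254 CPM in AAV9-GFP sham, 1293 to 1555 CPM in AAV9-GFP TAC, 1090 to 1155 CPM in AAV9-Cardinal sham and 1015 to 1459 CPM in AAV9-Cardinal TAC. Cardiomyocyte genes fell for 6 of 7 in AAV9-GFP hearts, with Tnni3 at −0.53 and Pln at −0.51, and for 1 (Pln, −0.29) in AAV9-Cardinal hearts. The remaining marker, Actc1, went the other way and was not called (0.12 in AAV9-GFP and 0.32 in AAV9-Cardinal hearts, edgeR adjusted p = 0.446 and 0.0525). Of all genes, 8.92% were called lower in AAV9-GFP hearts and 3.38% in AAV9-Cardinal hearts. In AAV9-GFP hearts 2 of 7 smooth muscle and pericyte markers (Cnn1 at 1.18 and Pdgfrb at 0.55), 1 of 6 endothelial markers (Cdh5, 0.25), 1 of 7 macrophage markers (C1qb, 0.24), 1 of 2 tested atrial markers (Dkk3, 1.86) and 0 of 5 red blood cell markers were called, all of them higher. Beside the 8.49% of all genes called higher in AAV9-GFP hearts, 1 call in so short a list says little about its cell type. In AAV9-Cardinal hearts edgeR and DESeq2 called none of the smooth muscle and pericyte, endothelial, macrophage, atrial or red blood cell markers. Of these, 3 endothelial and 1 atrial marker had an unadjusted edgeR p under 0.05 there. Dkk3 is also expressed by fibroblasts, and Myl4, the other tested atrial gene, was at 0.48 in AAV9-GFP hearts (adjusted p = 0.565).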

How the data were processed

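RNA-seq of the heart apex used poly(A)-selected libraries sequenced as single-end reads of 50 bases. The authors deposited 1 table of read counts per gene, not normalized. The submitters' processing notes name FastQC, HISAT2 (2.1.0), edgeR (3.26.1) and the build GRCm38, and the counting program, its annotation and its strand setting are not given in the sources used here. Of 55573 Ensembl identifiers 55480 had a symbol in GENCODE M21, which also gave coordinates and merged exon lengths.

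Counts were filtered with filterByExpr, normalized by TMM and fitted by the edgeR (4.0.16) quasi-likelihood test on all 16 mice with 1 term per group. p-values were adjusted by Benjamini-Hochberg over 16857 genes with a threshold of 0.05. The SE is the log2 fold change divided by the square root of F. CPM uses TMM-scaled library sizes, and likeness uses log2 CPM with a prior count of 2 and a mean of at least 1 CPM. The fit was tested on simulated data. Totals per mouse were 16441997 to 21904589 counts, and the common biological coefficient of variation was 0.128. The labels number the samples of a group, each taken here as 1 mouse, without stating that they came from separate animals, so p-values measure the spread between these samples.

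The members and gene lists were chosen with earlier results of these data known. Named genes were the 5 members, up to 4 called genes per list with the largest change in AAV9-GFP hearts, the receptors Cd36, Cd47 and Cacna2d1, Atf6, Hspa5, Tgfb1 and Gm12295, and the 3 genes most like each member. The values of 1 gene that this rule names are not reported here. Notch3, Scarb2, Ltbp1, Sel1l, Mtx1, Actc1 and the markers without counts were named after their values were seen. Alternatives were DESeq2 (1.42.0), upper-quartile scaling, no filter, only the 8 mice compared, a robust spread, mitochondrial genes left out, a replicate block, each mouse left out and, added later, an offset for GC content.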

Additional observations from a re-analysis of the deposited data

Results flagged for a closer look

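In 20 sets of 4 mice (5 members in 4 groups) the gap between an extreme mouse and its nearest neighbour, as a share of the whole range, was compared with Dixon's 95% critical value, which chance passes in about 1 of 20 such sets. It was passed in 2 sets. Comp in AAV9-GFP TAC replicate 3 was at 5.24 CPM against 1.07 to 1.66 CPM in the other 3 mice, a gap of 0.859 of the range. That mouse also had the most Thbs4 of its group (27.4 CPM). Thbs3 in AAV9-GFP TAC replicate 1 was at 5.87 CPM against 7.26 to 7.51 CPM, a gap of 0.848 of the range.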

How the results depend on the processing

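In AAV9-GFP hearts 4 members were called under all 8 other settings and in all 16 fits that left out 1 mouse. In AAV9-Cardinal hearts 4 were called, 2 (Thbs2 and Thbs4) with no filter on low counts or with only the 8 mice compared, 0 with the replicate block, and 1 to 4 with 1 mouse left out. With no mouse set aside, 3 or 4 were called under the remaining 5 settings. In sham hearts 0 were called throughout. The cause of the lost calls was not tested, and the replicate block also leaves fewer mice to inform the comparison, as described below.

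The labels do not say whether the replicate numbers pair the mice. Deviations of same-numbered mice correlated between −0.04 and 0.211 (16 pairs, median 0.054, 4 over 0.1). Those of other pairs correlated between −0.193 and 0.218 (80 pairs, median −0.013, 4 over 0.1). Whether a number marks a shared batch was not tested. All 4 same-numbered pairs over 0.1 joined mice numbered 1, whose 6 pairs ran from 0.067 to 0.211. Of the 13 mice with a same-numbered partner, 5 correlated best with their own number. Numbers 5 and 6 occur only in AAV9-Cardinal TAC and 7 only in AAV9-GFP TAC, so the block fits those mice exactly. Under the block the AAV9-Cardinal TAC level therefore rests on replicates 1 and 4 alone. A call lost there cannot be told apart from the loss of mice that inform it. With the replicate block, TAC against sham kept 4 calls in AAV9-GFP hearts and 0 in AAV9-Cardinal hearts (adjusted p 0.089 for Thbs1, 0.112 for Thbs2, 0.206 for Thbs3 and 0.089 for Thbs4), and 0 were called in sham hearts.

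Between the viruses in sham hearts the sign of Thbs1 (log2 fold change 0.01) turned with the replicate block (−0.14), and with 1 mouse left out it ran from −0.58 to 0.29, and Thbs2 (0.06) from −0.083 to 0.167. No call was involved. Thbs4 between the viruses in TAC hearts was −2.05 to −1.42 with 1 mouse left out and −1.68 to −1.54 under the other settings. Comp had 0 to 31 counts in AAV9-Cardinal sham mice, where the counts differ by more than the depth. Among the lists, DESeq2 called 5 genes of the Atf6 list in AAV9-GFP hearts, where edgeR called 2, and 2 cardiomyocyte markers in AAV9-Cardinal hearts, where edgeR called 1. Over all genes edgeR called 1092 in AAV9-Cardinal hearts, 615 with no filter on low counts, 31 with the replicate block and 384 to 1436 with 1 mouse left out, and in AAV9-GFP hearts 2934, and 1962 to 3072 with 1 mouse left out.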
